A study of Homo sapiens with 12 samples.

Results

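Cells given TGF-alpha were compared with untreated cells in MCF10A, a non-tumorigenic human breast epithelial line. The comparison takes the 3 arrays whose treatment label is TGF-alpha and the 3 arrays labelled untreated, which are 6 of the 12 arrays of the series. The other arrays come from cells given heregulin, a ligand of HER3 and HER4, and from cells given AP1510, a bivalent ligand that brings FKBP domains together, with 3 arrays each. Every gene named by a probe set of its own entered, which gave 18417 genes from 33297 probe sets, and where a gene had several, the probe set with the brightest mean over all arrays stood for it.

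All 4 groups, the untreated cells included, carried a stably transfected chimera of full-length HER2 with FKBP and an HA tag, and the labels do not say whether the line is 1 clone. Per the labels' protocols, cells were maintained with horse serum at 5%, EGF at 20 ng/ml, insulin at 10 microgram/ml, cholera toxin at 100 ng/ml and hydrocortisone at 500 ng/ml. Horse serum and EGF were taken away 24 hours before the ligand, and cholera toxin, hydrocortisone and insulin stayed. RNA was collected 48 hours after TGF-alpha. When untreated cells were harvested, how much TGF-alpha was added and in what vehicle are not stated in these sources, so treatment and time in culture cannot be told apart. Dishes of 100 mm were set up in triplicate, and p-values here speak only to the spread among dishes and their arrays. In bulk RNA, fewer cells that express a gene and less of its RNA per cell cannot be told apart.

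TGF-alpha is a growth factor of the EGF family that binds EGFR. Ligand-bound EGFR pairs with itself or with HER2 and signals mainly through RAS and ERK, which act on early response genes and ETS factors, and through PI3K and AKT, which hold FOXO factors outside the nucleus. Receptor inhibitors damp this signalling, and Sprouty proteins and dual-specificity phosphatases damp mainly the RAS and ERK arm. In mammary epithelium EGFR ligands drive proliferation, and MCF10A cells are kept in EGF to divide.

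The values are log2 RMA intensities. They ran from 1.75 to 14.2, with array medians of 5.33 to 5.44. Across genes, which are not independent replicates, the correlation was 0.972 to 0.976 between TGF-alpha and untreated arrays, 0.996 within TGF-alpha arrays and 0.995 to 0.996 within untreated arrays. Probe sets of 341 olfactory receptor genes, which breast epithelium is not known to use, served as a guide to background. Their 95th percentile was 4.73, and a mean under that level is called near background here. The basal mammary markers stood far above it, and their mean level was 10.1 to 10.2 on TGF-alpha arrays and 9.69 to 9.75 on untreated arrays. The 5 measured basal markers and 5 of the 7 luminal markers were above background in both groups, the exceptions being the hormone receptor genes ESR1 and PGR. The 4 measured leukocyte markers, PTPRC, CD3E, ITGAM and LYZ, were near background in both groups.

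Promoter stretches are shown for lists whose members moved largely in 1 direction, since each list has a textbook motif. Sequences are from RefSeq on GRCh38.p14, each written 5′ to 3′ along the gene's own strand, and capitals mark the motif, on either strand. A motif was searched over the 250 bases before and 50 after each gene's start, for 14237 genes with a sequence. The gene shown is the list member past the threshold that holds the most matches before its start, then the largest change. Genes on 1 chromosome were not eligible to be shown. The motifs are the CARE of ATF4 (TGATGNAA), the CHR of mitotic genes (TTTGAA), the E2F site (TTTCCCGC or TTTGGCGC), the CArG box bound by SRF, the CRE (TGACGTNA), the ISRE, the GAS (TTCNNNGAA), the core of the metal response element (TGCACNC or TGCGCNC), the E-box read by MYC (CACGTG) and the FOXO site (TGTTTAC).
CARE in ASNS, chr7:97872418-97872527, minus strand: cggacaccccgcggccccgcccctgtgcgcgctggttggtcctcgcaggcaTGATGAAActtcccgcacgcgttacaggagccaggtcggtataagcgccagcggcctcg
CHR in MKI67, chr10:128126424-128126533, minus strand: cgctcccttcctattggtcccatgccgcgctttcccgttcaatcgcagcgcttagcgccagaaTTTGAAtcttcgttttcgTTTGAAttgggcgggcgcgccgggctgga
E2F site in MCM6, chr2:135876506-135876615, minus strand: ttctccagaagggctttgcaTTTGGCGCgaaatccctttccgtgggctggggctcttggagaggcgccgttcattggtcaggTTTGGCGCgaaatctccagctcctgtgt
CArG box in EGR1, chr5:138465335-138465444, plus strand: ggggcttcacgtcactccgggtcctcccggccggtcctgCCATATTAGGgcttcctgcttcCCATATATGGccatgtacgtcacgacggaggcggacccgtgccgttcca
CRE in FOSB, chr19:45467885-45467994, plus strand: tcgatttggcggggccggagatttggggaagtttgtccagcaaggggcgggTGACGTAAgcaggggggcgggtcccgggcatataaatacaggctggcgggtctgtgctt
ISRE in IFITM3, chr11:320861-320970, minus strand: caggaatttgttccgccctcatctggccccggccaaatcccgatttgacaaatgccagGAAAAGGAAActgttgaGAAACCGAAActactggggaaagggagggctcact
GAS in IRF1, chr5:132490839-132490948, minus strand: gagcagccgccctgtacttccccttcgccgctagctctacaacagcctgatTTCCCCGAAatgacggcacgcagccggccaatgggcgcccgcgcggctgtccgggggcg
Metal response element core in MT1H, chr16:56669641-56669750, plus strand: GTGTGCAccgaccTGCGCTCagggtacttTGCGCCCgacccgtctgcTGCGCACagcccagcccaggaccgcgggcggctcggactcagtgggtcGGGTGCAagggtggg
E-box in UTP4, chr16:69132539-69132648, plus strand: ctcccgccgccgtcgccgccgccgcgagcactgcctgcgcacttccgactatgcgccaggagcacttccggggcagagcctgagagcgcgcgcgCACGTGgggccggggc
FOXO site in TXNIP, chr1:145996646-145996755, minus strand: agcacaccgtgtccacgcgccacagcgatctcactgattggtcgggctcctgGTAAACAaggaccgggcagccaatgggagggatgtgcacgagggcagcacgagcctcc

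The CHR was present in the promoters of 30 of 46 mitosis genes (65.2%), against 11.9% of all promoters. E2F sites were in 18 of 37 replication genes (48.6%), against 3.1% of all. The ISRE was in 22 of 36 interferon-stimulated genes (61.1%), against 3.04% of all, and in 12 of the 19 that passed. The GAS was in 10 of 36 (27.8%), against 7.06% of all, and in 7 of the 19 that passed. The E-box was in 15 of 37 ribosome biogenesis genes (40.5%), against 8.88% of all. The metal response element core was in 5 of 6 metallothionein-list promoters (83.3%), against 35.0% of all. MT1H alone held 8 matches before its start, of which the stretch shows 5. Smaller shares were found for the CRE in 6 of 20 immediate early genes (30.0%, against 3.98% of all), the CARE in 3 of 19 amino acid genes (15.8%, against 2.54%), of which ASNS alone passed the threshold, and the FOXO site in 3 of 22 FOXO targets (13.6%, against 2.45%). The CArG box was in 2 of 20 immediate early genes (10.0%, against 1.22%). The SRE of sterol genes (TCACNCCAC) was searched too and was in 1 of 17 sterol synthesis promoters (5.88%, against 1.14%), that of SREBF2, which did not pass, so no stretch is shown for it. A match describes the letters and is neither a bound site nor a cause. The lists follow textbook roles, so shares above those of all promoters do not bear on the TGF-alpha changes.

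Levels differed between TGF-alpha and untreated cells in a large part of the transcriptome. Of 18417 genes, 4781 (26%) passed an adjusted p of 0.05 in limma, 2311 of them higher (12.5%) and 2470 lower (13.4%). These are the shares against which each list below is read. Most of the changes were small, with a median size of 1.44-fold among the rises and 1.41-fold among the falls. In 399 genes (2.17%) the rise was at least 2-fold and in 351 (1.91%) the fall was. The median change over all genes was -0.01 on the log2 scale. In 4723 of the 4781 genes the TGF-alpha and untreated arrays did not overlap, a separation that 40.2% of all genes showed. The leading genes below, and the members named for the largest changes of each list, were picked from these 4723. Separation of their groups was thus fixed by the choice and is no evidence of its own. The volcano plot gives the size and the adjusted p of every gene.

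**Figure D1:**
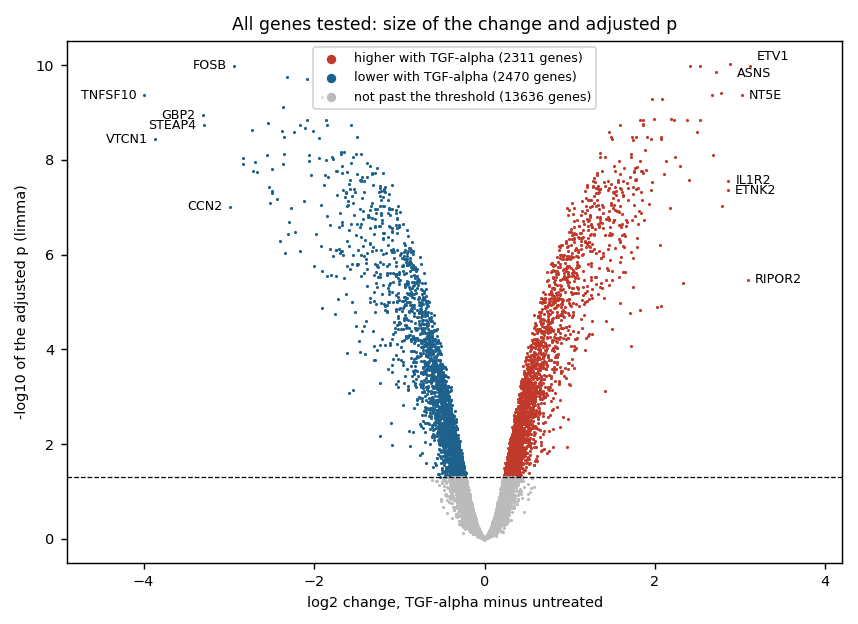
Each point is 1 of 18417 genes, with the log2 change (TGF-alpha minus untreated) on the x axis and -log10 of the limma adjusted p on the y axis. The dashed line marks an adjusted p of 0.05, which 2311 genes pass with higher and 2470 with lower levels, and TNFSF10 and VTCN1 lie farthest to the left while ETV1, RIPOR2 and NT5E lie farthest to the right.

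The gene with the largest rise was ETV1, an ETS transcription factor of the PEA3 group that is a known output of ERK. Its level was 6.39, 6.64 and 6.25 on the TGF-alpha arrays and 3.26, 3.37 and 3.32 on the untreated arrays. The groups lay far apart, and the untreated level was near background. ETV1 rose 8.64-fold (log2 change 3.11 ± 0.12, adjusted p = 1e-10), a size limited below by the background. RIPOR2 stood at 8.01, 8.12 and 8.06 on the TGF-alpha arrays and 5.24, 4.87 and 4.82 on the untreated arrays, and rose 8.51-fold (log2 change 3.09 ± 0.34, adjusted p = 3.4e-06). NT5E encodes CD73, the enzyme that makes extracellular adenosine. It stood at 10.17, 10.27 and 10.21 on the TGF-alpha arrays and 7.33, 6.98 and 7.3 on the untreated arrays. The groups did not overlap. NT5E rose 8.1-fold (log2 change 3.02 ± 0.13, adjusted p = 4.3e-10).

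ASNS, which makes asparagine, was also among the leading rises. Its level was 9.65, 9.69 and 9.59 on the TGF-alpha arrays and 6.93, 6.6 and 6.75 on the untreated arrays, with a rise of 7.38-fold (log2 change 2.88 ± 0.1, adjusted p = 9.6e-11). The decoy receptor of IL-1, encoded by IL1R2, stood at 9.15, 9.3 and 9.1 on the TGF-alpha arrays and 6.23, 6.7 and 6.04 on the untreated arrays. The 3 untreated values were more scattered than those of the other leading genes, and the rise was 7.25-fold (log2 change 2.86 ± 0.2, adjusted p = 2.7e-08). Further leading rises were those of the ethanolamine kinase gene ETNK2 (7.23-fold), the epithelial sodium channel subunit gene SCNN1G (6.92-fold), the serine synthesis genes PSAT1 (6.84-fold) and PHGDH (5.3-fold), and the PEA3 factor gene ETV5 (6.57-fold). The chemokine receptor gene CXCR4 rose 6.39-fold, the cyclin A1 gene CCNA1 6.34-fold, S100A2, a calcium-binding protein gene of the basal layer, 5.79-fold, the membrane protein gene EMP3 5.75-fold and the nucleolar protein gene LYAR 5.65-fold.

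**Figure D2:**
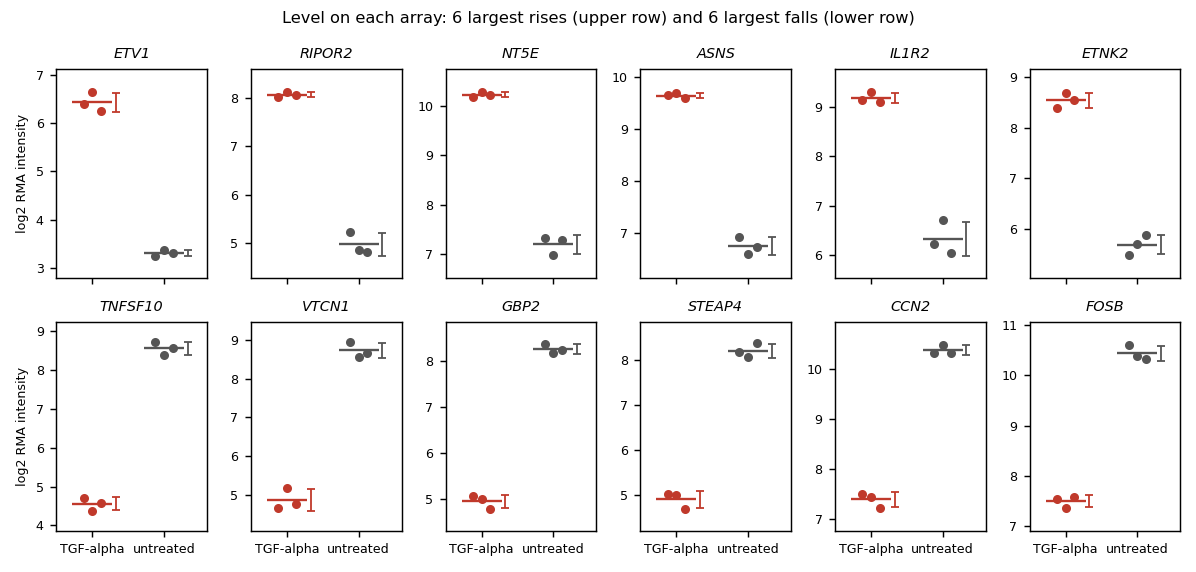
Log2 RMA intensity on each array for the 6 largest rises in the upper row and the 6 largest falls in the lower row, with the 3 TGF-alpha arrays left of the 3 untreated arrays. The horizontal lines are group means and the bars SDs (n = 3). In all 12 panels the groups lie apart, which the choice of these genes required. TNFSF10 lies at 4.38 to 4.71 on TGF-alpha arrays and 8.37 to 8.72 on untreated arrays.

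The steepest fall was that of TNFSF10, which encodes TRAIL, a ligand that triggers apoptosis. Its level was 4.71, 4.38 and 4.58 on the TGF-alpha arrays and 8.72, 8.37 and 8.57 on the untreated arrays. The TGF-alpha arrays reached background, which limits the measured size of the fall, 15.9-fold (log2 change -3.99 ± 0.18, adjusted p = 4.3e-10). VTCN1 encodes B7-H4, a member of the B7 family that restrains T cells. It stood at 4.65, 5.18 and 4.77 on the TGF-alpha arrays and 8.96, 8.57 and 8.67 on the untreated arrays, and fell 14.6-fold (log2 change -3.87 ± 0.22, adjusted p = 3.6e-09). The groups did not overlap. GBP2, an interferon-induced GTPase gene, stood at 5.06, 4.99 and 4.79 on the TGF-alpha arrays and 8.37, 8.16 and 8.23 on the untreated arrays, a fall of 9.88-fold (log2 change -3.3 ± 0.16, adjusted p = 1.2e-09). STEAP4, which encodes a metalloreductase, stood at 5.03, 4.99 and 4.69 on the TGF-alpha arrays and 8.18, 8.06 and 8.36 on the untreated arrays, a fall of 9.8-fold (log2 change -3.29 ± 0.17, adjusted p = 1.8e-09). Both genes were clearly expressed in untreated cells and came close to background in each TGF-alpha dish.

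CCN2, the connective tissue growth factor gene and a YAP target, stood at 7.49, 7.44 and 7.22 on the TGF-alpha arrays and 10.32, 10.49 and 10.32 on the untreated arrays, and fell 7.95-fold (log2 change -2.99 ± 0.24, adjusted p = 9.7e-08). FOSB, an AP-1 gene, stood at 7.54, 7.37 and 7.59 on the TGF-alpha arrays and 10.61, 10.39 and 10.33 on the untreated arrays, and fell 7.7-fold (log2 change -2.94 ± 0.11, adjusted p = 1e-10). The TGF-alpha values of both stayed above background. The other leading falls were the retinol dehydrogenase gene RDH10 (7.11-fold), the cholesterol transfer gene GRAMD1B (7.11-fold), the retinoic acid-induced gene RARRES1 (6.63-fold), the transporter gene SLC4A11 (6.57-fold) and HEG1 (6.46-fold), a cell junction protein gene. With them fell ID2 (6.38-fold), an inhibitor of basic helix-loop-helix factors, S100A8 (5.88-fold), a subunit of calprotectin, PLK2 (5.82-fold), a p53-responsive kinase gene, and PLPP3 (5.76-fold), a lipid phosphatase gene. The plot of the leading genes by array shows the 6 largest changes of each direction.

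Among the ErbB receptors, ERBB2 stood at 11.46, 11.54 and 11.49 on the TGF-alpha arrays and 10.94, 10.98 and 10.93 on the untreated arrays, and rose 1.46-fold (log2 change 0.55 ± 0.08, adjusted p = 8.2e-05). The ERBB2 probe set may read the HER2 chimera as well as the cells' own gene. EGFR, the receptor of TGF-alpha, stood at 9.09, 8.98 and 8.98 on the TGF-alpha arrays and 8.72, 8.66 and 8.64 on the untreated arrays. Its rise of 1.27-fold (log2 change 0.35 ± 0.09, adjusted p = 0.0095) was small. ERBB3, the HER3 gene, stood at 7.17, 7.18 and 6.98 on the TGF-alpha arrays and 8.04, 8.01 and 8.04 on the untreated arrays, and fell 1.89-fold (log2 change -0.92 ± 0.1, adjusted p = 4.4e-06). ERBB4 had a log2 change of -0.07 (adjusted p = 0.76) and was near background.

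Among 14 receptor inhibitors, LRIG1 fell most, an LRIG family gene whose product promotes EGFR degradation. It stood at 6.03, 6.11 and 6.33 on the TGF-alpha arrays and 7.64, 7.57 and 7.56 on the untreated arrays, and fell 2.7-fold (log2 change -1.43 ± 0.14, adjusted p = 6.7e-07). Its paralog LRIG3 fell 1.94-fold and the SOCS family gene SOCS5 fell 1.39-fold. ERRFI1, CBL and PTPN1 were higher by 1.19-fold to 1.24-fold with adjusted p values under 0.05, but ERRFI1 had an adjusted p of 0.059 without TGF-alpha replicate 3, and CBL and PTPN1 lost the call there as well. Without untreated replicate 1 or TGF-alpha replicate 1, 1 of the 3 passed. The other 8 did not pass.

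Of the 10 measured ligands, 1 fell and 7 did not pass. HBEGF, the heparin-binding EGF gene, stood at 6.27, 5.83 and 6.1 on the TGF-alpha arrays and 7.99, 7.95 and 7.97 on the untreated arrays, and fell 3.75-fold (log2 change -1.91 ± 0.2, adjusted p = 2.2e-06). EPGN, the epigen gene, moved the other way, at 8.57, 8.82 and 8.67 on the TGF-alpha arrays and 7.54, 7.57 and 7.81 on the untreated arrays, a rise of 2.07-fold (log2 change 1.05 ± 0.16, adjusted p = 8.5e-05). The cells' own TGFA was 1.36-fold higher (adjusted p = 0.016), and without 1 of 4 arrays in turn (untreated replicate 2 or 3, TGF-alpha replicate 2 or 3) it did not pass, the adjusted p reaching 0.084 without untreated replicate 2. EREG, the epiregulin gene, had a log2 change of -0.21 (adjusted p = 0.076), and NRG4 one of -0.27 (adjusted p = 0.096), which did not pass here though each passed in an alternative fit. The log2 changes of BTC, EGF, NRG1, NRG2 and NRG3 lay between -0.08 and 0.12, and did not pass.

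The ERK feedback and output list split into both directions. Of its 25 measured genes, 11 rose and 8 fell. The 3 PEA3 factors rose together: beside ETV1 and ETV5, ETV4 stood at 6.21, 6.19 and 6.64 on the TGF-alpha arrays and 4.61, 4.42 and 4.32 on the untreated arrays, a rise of 3.72-fold (log2 change 1.9 ± 0.12, adjusted p = 1.6e-08). DUSP6, the phosphatase gene that inactivates ERK in the cytoplasm, stood at 8.86, 8.86 and 9.1 on the TGF-alpha arrays and 6.87, 6.81 and 6.6 on the untreated arrays, and rose 4.54-fold (log2 change 2.18 ± 0.11, adjusted p = 1.4e-09). The TGF-alpha arrays stood well clear of the untreated ones in both genes, and ETV4 was near background in untreated cells. DUSP5, whose product inactivates ERK in the nucleus, went the other way. It stood at 7.42, 7.31 and 7.35 on the TGF-alpha arrays and 9.28, 9.11 and 9.03 on the untreated arrays, and fell 3.43-fold (log2 change -1.78 ± 0.18, adjusted p = 1.1e-06). The Sprouty genes were divided, SPRY4, near background in untreated cells, rising 1.88-fold and SPRY2 falling 2.13-fold. With SPRY2 fell IER3 2.39-fold and the ephrin receptor gene EPHA4 2.16-fold. The feedback genes thus moved both ways, with DUSP6 and SPRY4 higher and DUSP5 and SPRY2 lower.

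Immediate early genes were mostly lower after 48 hours of TGF-alpha. Of 23 measured, 18 fell, 1 rose and 4 did not pass, with a median log2 change of -0.65. EGR3, a zinc finger factor, stood at 5.79, 5.75 and 6.04 on the TGF-alpha arrays and 8.22, 8.49 and 8.37 on the untreated arrays, and fell 5.64-fold (log2 change -2.5 ± 0.18, adjusted p = 5e-08). The orphan nuclear receptor genes NR4A1 and NR4A2 fell 3.52-fold and 3.77-fold. KLF4, a factor of epithelial differentiation, was the exception and rose 1.46-fold (adjusted p = 0.002).

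**Figure D3:**
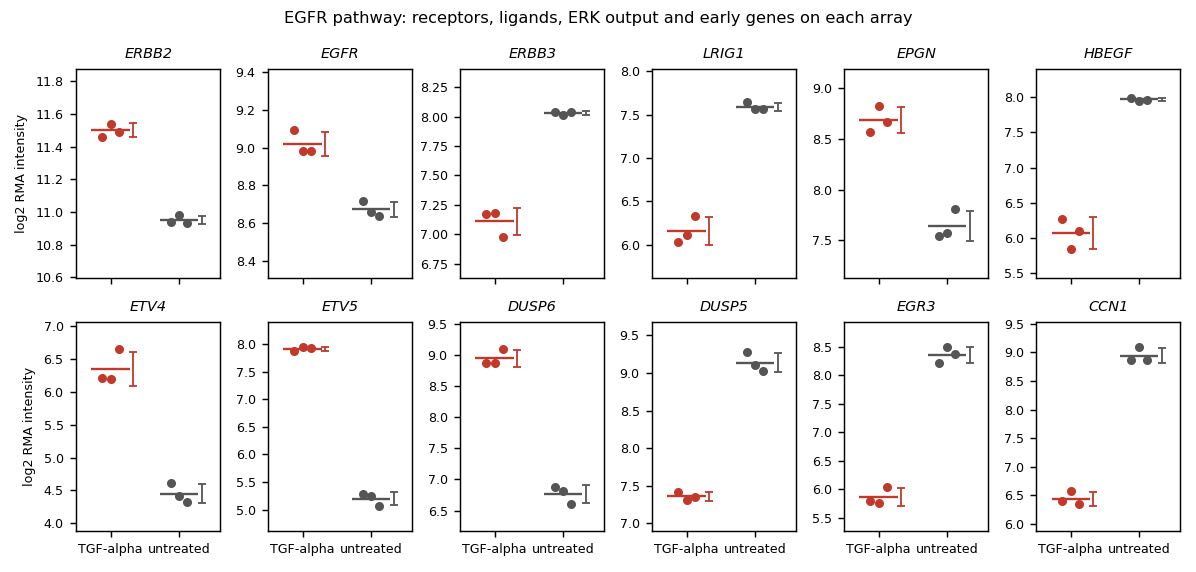
Log2 RMA intensity on each array for ErbB receptors, a receptor inhibitor and ligands in the upper row, and for ERK output, early and YAP target genes in the lower row, with TGF-alpha left of untreated. Lines are means and bars SDs (n = 3 arrays), and each panel has its own y axis: ERBB2, EGFR, EPGN, ETV4, ETV5 and DUSP6 are higher with TGF-alpha, and the remaining 6 are lower.

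YAP target genes moved in both directions, 6 higher and 11 lower of 22. CCN2 fell most of the list. CCN1, its sister gene, stood at 6.4, 6.58 and 6.35 on the TGF-alpha arrays and 8.87, 9.09 and 8.86 on the untreated arrays, and fell 5.64-fold (log2 change -2.5 ± 0.18, adjusted p = 4.6e-08). IGFBP3, which encodes an IGF-binding protein, fell 5.74-fold. NT5E led the rises, and the receptor tyrosine kinase gene AXL rose 2.68-fold and FJX1 2.22-fold. The contractile genes regulated by SRF had 10 of 18 members that did not pass. The smooth muscle myosin kinase gene MYLK fell 2.48-fold, FHL2 fell 1.37-fold and ACTG1 1.25-fold, while ACTA2 rose 1.51-fold and ACTN1 1.31-fold. Of this list 5 genes were lower, 3 of them without TGF-alpha replicate 3.

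ID proteins block differentiation factors and are targets of BMP signalling. ID2 stood at 5.51, 5.1 and 5.23 on the TGF-alpha arrays and 7.98, 7.71 and 8.17 on the untreated arrays. ID3 stood at 6.76, 6.38 and 6.57 on the TGF-alpha arrays and 8.26, 8.48 and 8.34 on the untreated arrays, a fall of 3.45-fold (log2 change -1.79 ± 0.11, adjusted p = 8.8e-09). Both lay apart between the groups, and with them fell the inhibitory SMAD gene SMAD6 (1.82-fold) and BAMBI (1.37-fold), a decoy receptor gene. In total 6 of 18 fell and 10 did not pass. NOG and FST passed as higher (1.38-fold and 1.39-fold), but neither passed without untreated replicate 3 or TGF-alpha replicate 3. FST was near background in both groups.

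Genes of DNA replication rose without a measured exception: 43 of 43 passed as higher, where 12.5% of all genes did, with a median log2 change of 1.26. TYMS, the thymidylate synthase gene, stood at 9.27, 9.47 and 9.35 on the TGF-alpha arrays and 6.77, 7.08 and 7.04 on the untreated arrays, and rose 5.28-fold (log2 change 2.4 ± 0.17, adjusted p = 2.7e-08). The helicase cofactor gene CDC45 rose 4.2-fold, the clamp loader gene RFC4 3.9-fold and CLSPN, which encodes the checkpoint adaptor claspin, 3.55-fold. The least changed were the 3 subunits of the single-strand binding protein RPA, which rose by 0.27 to 0.39 on the log2 scale.

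Mitosis genes did likewise, with 53 of 53 higher and a median log2 change of 1.51. MKI67, which encodes the proliferation antigen Ki-67 and whose promoter stretch with its CHR is printed above, stood at 9.95, 10.06 and 10.18 on the TGF-alpha arrays and 8.21, 8.21 and 8.18 on the untreated arrays, and rose 3.64-fold (log2 change 1.86 ± 0.1, adjusted p = 1.9e-09). The cell cycle factor gene MYBL2 rose 3.62-fold, the centromere gene CENPI 3.59-fold and the spindle checkpoint kinase gene TTK 3.58-fold. Cell number was not measured in these files. Of 42 replication-dependent histone genes, 34 rose and 8 did not pass, with H1-5 at 4.29-fold, H3C2 at 3.88-fold and H2BC14 at 3.46-fold. Histone genes are near-identical copies, so a probe set may read more than 1 of them.

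The genes that govern entry into the cycle were less uniform. CCNA1 stood at 8.17, 8.06 and 8.18 on the TGF-alpha arrays and 5.55, 5.54 and 5.32 on the untreated arrays, far apart. The pocket protein gene RBL1 rose 2.73-fold, E2F7, a repressor of E2F targets, 2.31-fold and the G1 kinase gene CDK4 1.6-fold. The CDK inhibitor gene CDKN1B, which encodes p27, fell 1.68-fold (adjusted p = 7.4e-05) and the cyclin G2 gene CCNG2 1.48-fold. Of 25 measured, 9 rose, 12 did not pass, and 4 were lower, 2 when TGF-alpha replicate 1 or 3 or untreated replicate 2 or 3 was left out. In the MYC and MAX network 11 of 13 did not pass, MYC itself among them, and MXD1, an antagonist of MYC, fell 1.78-fold.

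Ribosome biogenesis was raised almost throughout, with 42 of 44 genes higher, 2 not past the threshold and a median log2 change of 0.65. LYAR stood at 8.61, 8.66 and 8.95 on the TGF-alpha arrays and 6.25, 6.39 and 6.08 on the untreated arrays. The nucleolar phosphoprotein gene NOLC1 rose 2.35-fold, the RNA helicase gene DDX21 2.19-fold and RRP1B 2.15-fold. The cytosolic ribosomal proteins themselves changed much less: 14 of 62 were higher, 8 without untreated replicate 3, and the median log2 change was 0.14. The paralogs RPL22L1 (2.54-fold), RPL39L (1.5-fold) and RPL7L1 (1.42-fold) had the largest rises of that list. Mitochondrial ribosomal proteins rose in 37 of 73 genes and fell in 1, MRPS14, with a median of 0.29 and the largest rise in MRPL3 (1.64-fold). Nuclear pore and transport genes rose in 35 of 51, led by XPOT, the exporter of tRNA (2.63-fold), the pore gene NUP205 (2.43-fold) and the RAN cofactor gene RANBP1 (2.35-fold).

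Aminoacyl-tRNA synthetases, which charge tRNAs for translation, rose in 15 of 19 genes with a median log2 change of 0.8. GARS1, the glycine enzyme gene, stood at 11.17, 11.27 and 11.31 on the TGF-alpha arrays and 9.94, 9.89 and 9.78 on the untreated arrays, and rose 2.6-fold (log2 change 1.38 ± 0.09, adjusted p = 1.7e-08). IARS1, FARSB and MARS1 rose 2.35-fold, 2.12-fold and 2.02-fold. The remaining 4 did not pass. The wider list of amino acid synthesis and ATF4 targets had 16 higher and 1 lower of 24. PHGDH, which catalyses the committed step of serine synthesis, stood at 9.44, 9.59 and 9.45 on the TGF-alpha arrays and 7.09, 7.06 and 7.1 on the untreated arrays. PSAT1, the next enzyme, stood at 9.2, 9.4 and 9.27 on the TGF-alpha arrays and 6.28, 6.64 and 6.62 on the untreated arrays. Both were far apart between the groups. The mitochondrial folate enzyme gene ALDH1L2 rose 5.19-fold. The member that fell was DDIT3, the stress factor gene CHOP (1.57-fold lower, adjusted p = 0.0018).

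Amino acid transporters rose in 6 of 20 genes. The neutral amino acid carrier gene SLC6A15 rose 3.66-fold and the cystine carrier gene SLC7A11 3.64-fold. SLC1A4, which carries alanine and serine, rose 2.66-fold and the arginine carrier gene SLC7A1 1.85-fold. In contrast SLC6A14, a broad amino acid carrier gene, stood at 7.34, 7.44 and 7.45 on the TGF-alpha arrays and 9.81, 9.45 and 9.88 on the untreated arrays, and fell 4.94-fold (log2 change -2.3 ± 0.21, adjusted p = 3.6e-07). The lysosomal carrier gene SLC36A1 fell 1.48-fold. The ER chaperone list had 11 of 18 members not past the threshold. XBP1, the unfolded protein response factor gene, rose 1.47-fold, while HSPA5, the gene of the chaperone BiP, fell 1.44-fold, SEL1L 1.3-fold and CALR 1.3-fold. In all 5 of this list were lower, 3 without TGF-alpha replicate 1. Among cytosolic and mitochondrial heat shock genes, HSPH1 (1.7-fold), CHORDC1 (1.56-fold), HSPD1 (1.42-fold) and STIP1 (1.4-fold) rose and HSPB1 fell 1.34-fold. Of 31 proteasome subunits 12 were higher, 7 without TGF-alpha replicate 2, led by PSMD14 (1.55-fold).

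Sterol synthesis genes rose in 12 of 19. ACAT2, whose product makes acetoacetyl-CoA, stood at 9.79, 9.98 and 9.84 on the TGF-alpha arrays and 8.11, 8.1 and 8.15 on the untreated arrays, and rose 3.37-fold (log2 change 1.75 ± 0.12, adjusted p = 1.8e-08). SQLE, the squalene epoxidase gene, rose 2.37-fold, HMGCS1 2.25-fold and FDPS 2.06-fold, while TM7SF2, a sterol reductase gene, fell 1.31-fold. Fatty acid synthesis genes rose in 7 of 13, with the acetate enzyme gene ACSS2 at 1.84-fold, ATP citrate lyase (ACLY) at 1.68-fold and the desaturase gene FADS1 at 1.58-fold. SREBF1, which encodes the lipogenic factor SREBP1, fell 1.68-fold (adjusted p = 1.7e-05), against the direction of these enzymes.

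Glycolysis genes were mixed, 7 higher and 3 lower of 21. The phosphofructokinase gene PFKP stood at 9.15, 9.13 and 9.14 on the TGF-alpha arrays and 7.59, 7.77 and 7.58 on the untreated arrays, and rose 2.82-fold (log2 change 1.5 ± 0.08, adjusted p = 3.6e-09). ALDOC rose 2.6-fold and HK2 1.56-fold. PFKFB3, whose product makes the activator of phosphofructokinase, fell 1.84-fold, and PFKFB2 1.49-fold. Hypoxia genes rose in 8 of 17, led by the collagen crosslinking gene LOX (2.82-fold), BNIP3 (2.4-fold), P4HA1 (2.25-fold) and PDK1 (2.04-fold), while the histone demethylase gene KDM3A fell 1.57-fold. The respiratory chain and ATP synthase stayed close to the whole, with 54 of 68 genes not past the threshold and a median of 0.01. Of those that passed, 9 were higher, 4 without untreated replicate 1 or TGF-alpha replicate 2, with ATP5MC1 (1.49-fold) and CYC1 (1.41-fold) among them, and 5 were lower, 3 without untreated replicate 1.

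Targets that FOXO factors induce and PI3K holds down were lower in 11 of 23. FBXO32, the ubiquitin ligase gene atrogin-1, stood at 8.49, 8.49 and 8.27 on the TGF-alpha arrays and 10.86, 10.73 and 10.76 on the untreated arrays, and fell 5.16-fold (log2 change -2.37 ± 0.11, adjusted p = 7.5e-10). The pyruvate dehydrogenase kinase genes PDK4 and PDK2 fell 2.95-fold and 2.63-fold, and CITED2 fell 2.84-fold. TSC22D3, the glucocorticoid-induced leucine zipper gene, was an exception. It stood at 8.93, 9.14 and 9.07 on the TGF-alpha arrays and 7.46, 7.4 and 7.52 on the untreated arrays, and rose 3.01-fold (log2 change 1.59 ± 0.16, adjusted p = 1.5e-06).

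Of 16 BCL2 family genes 4 fell and 1 rose, and 11 did not pass, the BH3 genes BAD, BBC3, BIK and HRK among them. BCL2L11, the gene of the apoptosis activator BIM, stood at 6.91, 6.68 and 6.6 on the TGF-alpha arrays and 8.32, 8.12 and 8.42 on the untreated arrays, and fell 2.94-fold (log2 change -1.56 ± 0.12, adjusted p = 5.8e-08). BMF, another BH3 gene, fell 2.06-fold, BID 1.39-fold and PMAIP1, the NOXA gene, 1.34-fold. BCL2L1, the gene of the survival protein BCL-XL, rose 1.75-fold. Of 13 TRAIL, death receptor and caspase genes 6 fell and 3 rose. Next to TNFSF10, the caspase genes CASP1 (2.28-fold), CASP10 (1.76-fold) and CASP9 (1.45-fold) fell, whereas the death receptor genes FAS (1.74-fold), TNFRSF10A (1.54-fold) and the decoy TNFRSF10D (1.31-fold) rose. Of 21 p53 targets 5 rose, among them DDB2 (1.43-fold), MDM2 (1.35-fold) and RRM2B (1.28-fold), and 12 did not pass. PLK2 stood at 8.49, 8.33 and 8.29 on the TGF-alpha arrays and 10.94, 10.85 and 10.95 on the untreated arrays. TP53INP1, a stress-induced p53 cofactor gene, fell 3.07-fold and PLK3 1.53-fold.

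Interferon-stimulated genes were lower in 24 of 47, with a median log2 change of -0.47. IRF1, the interferon regulatory factor gene whose GAS is shown above, stood at 5.84, 6.21 and 5.98 on the TGF-alpha arrays and 8.17, 8.26 and 8.43 on the untreated arrays, and fell 4.84-fold (log2 change -2.28 ± 0.18, adjusted p = 1e-07). HERC6 fell 3.66-fold and IFITM1, which encodes a membrane protein that blocks virus entry, 3.02-fold. Not every member moved: 22 did not pass, with log2 changes of -0.29 to 0.19, MX1, ISG15 and IFI27 among them, and 10 of the list were near background in both groups. OAS3 alone passed as higher (log2 change 0.31, adjusted p = 0.044), a call lost in 5 alternative fits. Antigen presentation genes fell in 8 of 15, and 7 did not pass. The peptide-loading gene TAPBP fell 2.13-fold, the trimming enzyme gene ERAP1 1.83-fold and the immunoproteasome genes PSMB10 and PSMB8 1.91-fold and 1.78-fold. Leukocyte markers were near background in both groups.

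NF-kB subunits and inhibitors fell in 7 of 14, and 7 did not pass. NFKBIZ, an inducible co-regulator gene, stood at 6.26, 6.08 and 6.0 on the TGF-alpha arrays and 8.49, 8.3 and 8.45 on the untreated arrays, and fell 4.92-fold (log2 change -2.3 ± 0.2, adjusted p = 2.1e-07). TNFAIP3, the A20 gene, fell 3.18-fold, NFKB2 2.25-fold and REL 2.05-fold. Of 21 chemokine and receptor genes 7 fell, the neutrophil attractants among them, CXCL1 by 3.58-fold, CXCL2 by 3.28-fold and CXCL8 by 2.2-fold, and CXCL16 fell 3.06-fold. CXCR4, the receptor of CXCL12, stood out at 7.56, 7.95 and 7.76 on the TGF-alpha arrays and 5.34, 5.1 and 4.8 on the untreated arrays, a rise of 6.39-fold (log2 change 2.68 ± 0.16, adjusted p = 8e-09). CCL20, near background in untreated cells, rose 1.56-fold.

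Of the IL-1 family 13 of 15 genes did not pass. IL1R2 rose, and IL1RAP, the accessory receptor gene, fell 1.62-fold. In the IL-6 family 4 of 12 genes fell. IL6 stood at 3.99, 4.05 and 3.97 on the TGF-alpha arrays and 5.55, 5.84 and 5.33 on the untreated arrays, with the TGF-alpha arrays near background, and fell 2.97-fold (log2 change -1.57 ± 0.13, adjusted p = 2.3e-07). LIF fell 2.02-fold, STAT3 1.44-fold and IL11RA 1.34-fold, whereas IL6R, the receptor gene, rose 1.58-fold. Complement and acute phase genes also divided. SERPINA3, the antichymotrypsin gene, stood at 8.64, 9.0 and 8.66 on the TGF-alpha arrays and 6.62, 6.63 and 6.17 on the untreated arrays, and rose 4.89-fold (log2 change 2.29 ± 0.15, adjusted p = 1.3e-08). SERPINA1 rose 1.91-fold. The complement genes CFB and C3 fell 3.19-fold and 2.12-fold, and the complement inhibitor gene CD59 1.45-fold.

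Pattern receptors fell in 6 of 11. CD14, the lipopolysaccharide co-receptor gene, stood at 7.41, 7.1 and 7.17 on the TGF-alpha arrays and 9.79, 9.57 and 9.46 on the untreated arrays, and fell 5.2-fold (log2 change -2.38 ± 0.13, adjusted p = 2.5e-09). TLR1 fell 4.67-fold, TLR3 3.7-fold and TLR6 2.39-fold. TLR2 went the other way and rose 2.13-fold (adjusted p = 5.6e-05). The S100 list had 5 higher and 5 lower of 15. S100A2 stood at 8.94, 8.98 and 9.03 on the TGF-alpha arrays and 6.14, 6.75 and 6.46 on the untreated arrays, and S100A8 at 8.03, 8.07 and 7.67 on the TGF-alpha arrays and 10.43, 10.43 and 10.57 on the untreated arrays. These are opposite changes of more than 5-fold within 1 gene family. S100A9, which pairs with S100A8, fell 2.21-fold, and S100A3 rose 1.71-fold.

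B7 ligands other than VTCN1 changed little: VSIR fell 1.35-fold, and 6 of 9 did not pass, with 5 of the list near background. Among genes that handle adenosine, NT5E was joined by ADORA2B, the A2B receptor gene, which rose 1.7-fold, and 8 of 12 did not pass. The list had 4 genes higher, 2 without TGF-alpha replicate 3. NT5E encodes an enzyme anchored in the membrane, and its RNA level does not give its activity.

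Keratins showed 7 rises and 4 falls among 21 genes. KRT5, the basal keratin gene, stood at 12.59, 12.63 and 12.55 on the TGF-alpha arrays and 11.47, 11.67 and 11.36 on the untreated arrays, and rose 2.13-fold (log2 change 1.09 ± 0.11, adjusted p = 1.1e-06). KRT14, its partner, rose 1.47-fold, and KRT18, KRT8 and KRT16 rose 1.88-fold, 1.53-fold and 1.51-fold. KRT23 fell 3.93-fold, KRT13 1.43-fold, the basal keratin gene KRT15 1.35-fold and the luminal keratin gene KRT19 1.3-fold. KRT19 did not pass without untreated replicate 3 (adjusted p = 0.075) or TGF-alpha replicate 2 (adjusted p = 0.053). The luminal transcription factor genes GATA3 and FOXA1 fell 1.74-fold and 1.79-fold. CDH3, the P-cadherin gene, fell 1.36-fold. Basal and luminal genes were thus each found among both the rises and the falls.

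Late squamous genes had 19 of 33 members not past the threshold. GRHL1, a regulator of the epidermal barrier, fell 2.73-fold, involucrin (IVL) 2.15-fold and SPRR3 1.75-fold, while the lipid transporter gene ABCA12 rose 1.59-fold and the transglutaminase gene TGM1 1.57-fold. In all 7 fell and 7 were higher, 4 without TGF-alpha replicate 2. The kallikrein genes KLK5, KLK6 and KLK7, whose proteases act in shedding of surface cells, fell 2.87-fold, 2.12-fold and 2.99-fold, and 9 of 13 kallikreins did not pass. Among desmosome genes PKP2, the plakophilin 2 gene, stood at 9.47, 9.63 and 9.63 on the TGF-alpha arrays and 7.84, 7.69 and 7.61 on the untreated arrays, and rose 3.63-fold (log2 change 1.86 ± 0.09, adjusted p = 1.4e-09). DSG3, the basal desmoglein gene, rose 2.24-fold, while PERP fell 1.54-fold and DSC2 1.47-fold. Of 13 desmosome genes 4 were higher, 2 without untreated replicate 1 or TGF-alpha replicate 2. Among clade B serpins, SERPINB1 fell 1.49-fold and 9 of 11 did not pass. SERPINB7 passed as higher, but was near background in both groups.

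Tight junction genes were lower in 11 of 17, with a median log2 change of -0.53. CLDN1, the claudin 1 gene, stood at 8.97, 8.94 and 8.99 on the TGF-alpha arrays and 10.94, 10.81 and 10.97 on the untreated arrays, and fell 3.84-fold (log2 change -1.94 ± 0.12, adjusted p = 8.9e-09). CLDN4 fell 2.32-fold, CLDN8 1.94-fold and SPINT1, a protease inhibitor gene, 1.93-fold. EPCAM rose 1.89-fold (adjusted p = 0.0027). Among cadherins and mesenchymal regulators, VIM, the vimentin gene, stood at 7.63, 7.87 and 8.09 on the TGF-alpha arrays and 6.49, 6.35 and 6.38 on the untreated arrays, and rose 2.74-fold (log2 change 1.45 ± 0.12, adjusted p = 1.8e-07). Fibronectin (FN1) fell 2.29-fold, SNAI1 1.8-fold and TGFBR2, a TGF-beta receptor gene, 1.41-fold. CDH1, the E-cadherin gene, did not pass, and the mesenchymal set thus had 5 rises and 4 falls among 20, VIM and FN1 being opposite.

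Integrin subunits also divided, 5 higher and 5 lower of 19. ITGB6, the beta6 subunit gene, stood at 9.01, 8.92 and 8.8 on the TGF-alpha arrays and 11.03, 10.77 and 11.05 on the untreated arrays, and fell 4.11-fold (log2 change -2.04 ± 0.14, adjusted p = 2e-08). The hemidesmosome partners ITGA6 and ITGB4 rose 2.45-fold and 1.64-fold, and ITGA5, the fibronectin receptor subunit gene, rose 1.9-fold. Basement membrane genes fell in 6 of 18, with LAMA4 at 2.49-fold, LAMB2 at 1.78-fold and HSPG2, the perlecan gene, at 1.58-fold, while the collagen IV genes COL4A2 and COL4A1 rose 1.8-fold and 1.36-fold. Metalloproteinase and TIMP genes fell in 9 of 23 and 14 did not pass, the falls being led by matrilysin (MMP7, 4.18-fold), TIMP3 (3.1-fold), MMP13 (3.07-fold) and MMP2 (2.07-fold). MMP13 was near background with TGF-alpha. In the plasminogen activator system 4 of 7 genes were lower. PLAU, the urokinase gene, stood at 6.24, 6.16 and 6.31 on the TGF-alpha arrays and 8.09, 7.91 and 7.93 on the untreated arrays, and fell 3.33-fold (log2 change -1.74 ± 0.19, adjusted p = 2.9e-06). Its receptor gene PLAUR fell 1.51-fold and LRP1, a clearance receptor gene, 1.63-fold, while SERPINE2, an inhibitor gene, rose 2.39-fold.

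Mucins and luminal secretory genes were lower in 10 of 20. MUC16 fell 2.69-fold, the water and glycerol channel gene AQP3 2.66-fold, the epithelial ETS factor gene ELF3 2.44-fold and MUC15 2.42-fold. MUC21 rose 2.0-fold (adjusted p = 0.00058).

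**Figure D4:**
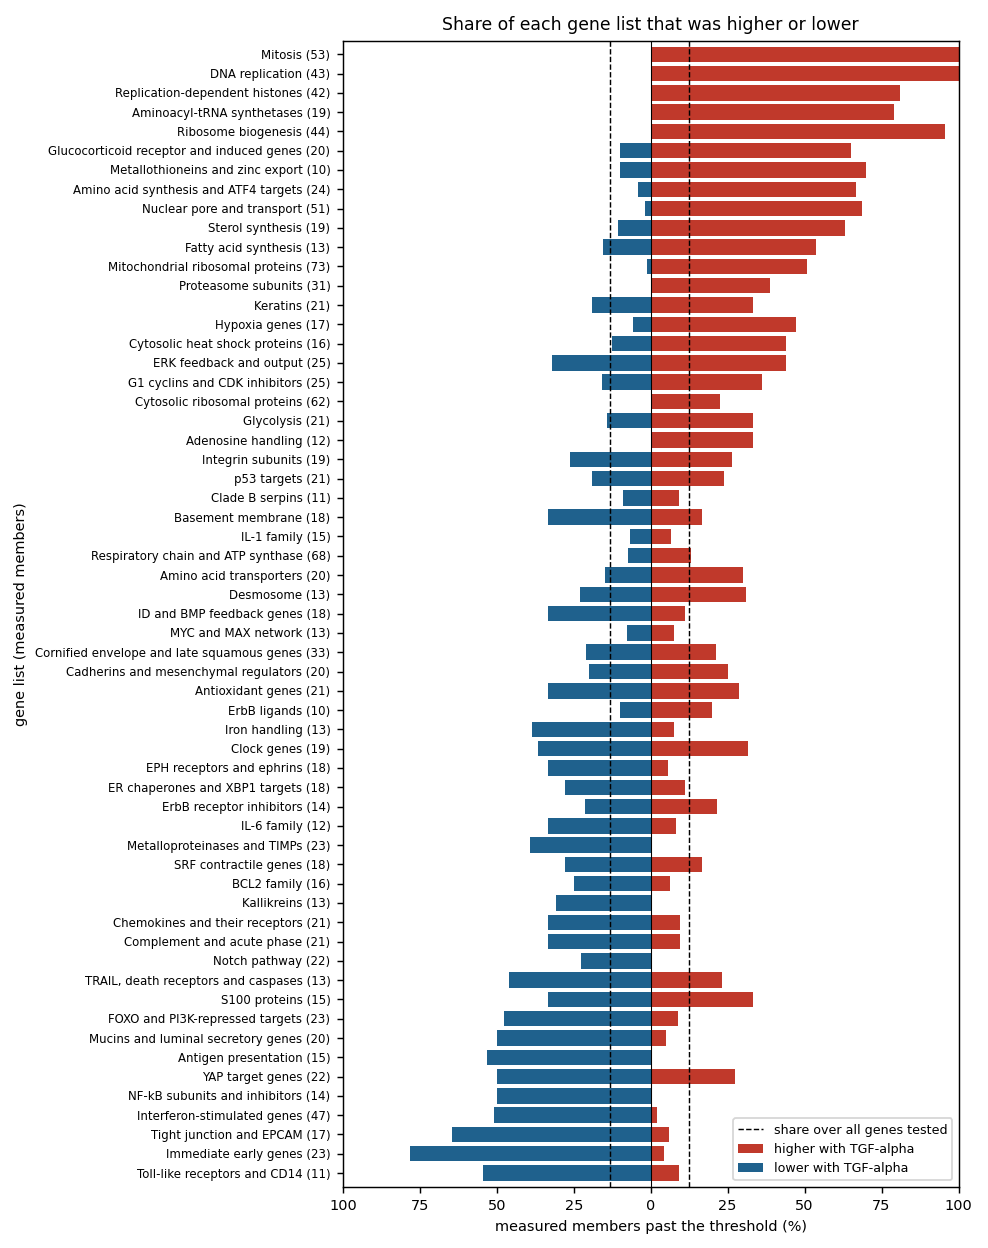
For each gene list with 10 or more measured members (number in brackets), the bar to the right of 0 gives the percentage of measured members that were higher with TGF-alpha and the bar to the left the percentage that were lower, at an adjusted p of 0.05. Dashed lines mark the shares over all 18417 genes, 12.5% higher and 13.4% lower, and lists are ordered by their median log2 change, with mitosis and DNA replication at the top and Toll-like receptors and immediate early genes at the bottom.

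Hydrocortisone was in the medium of all groups, and genes that glucocorticoids induce were higher in 13 of 20. SCNN1G, the gamma subunit gene of the sodium channel, stood at 9.62, 9.85 and 9.73 on the TGF-alpha arrays and 7.0, 6.99 and 6.84 on the untreated arrays, and rose 6.92-fold (log2 change 2.79 ± 0.22, adjusted p = 9.2e-08). TFCP2L1 rose 5.02-fold and ZBTB16, the PLZF gene, 3.3-fold. GLUL, the glutamine synthetase gene, fell 2.15-fold, and DUSP1, a phosphatase gene of the early response, 1.42-fold. The receptor gene NR3C1 was not past the threshold. Metallothioneins, which bind zinc and copper and include glucocorticoid targets, rose in 7 of 10. MT2A lay between 12.86 and 13.11 on the TGF-alpha arrays and stood at 10.47, 11.04 and 10.74 on the untreated arrays, and rose 4.71-fold (log2 change 2.24 ± 0.14, adjusted p = 8.6e-09). MT1E and MT1G rose 3.68-fold and 2.88-fold, while the zinc exporter gene SLC30A1 fell 1.68-fold. Metallothionein genes are close copies, and their probe sets may read each other's RNA.

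Antioxidant genes had 6 rises and 7 falls among 21. Thioredoxin (TXN) rose 1.89-fold and PRDX6 1.53-fold. SELENOP, the selenium carrier gene, stood at 4.11, 4.31 and 4.29 on the TGF-alpha arrays and 6.68, 6.48 and 6.62 on the untreated arrays, and fell 5.12-fold (log2 change -2.36 ± 0.14, adjusted p = 7.5e-09). Its TGF-alpha arrays were near background. The mitochondrial dismutase gene SOD2 fell 2.5-fold, NQO1 1.95-fold and TXNRD1 1.83-fold. In iron handling 5 of 13 fell, STEAP4, the iron carrier gene SLC11A2 (2.44-fold) and ferritin light chain (FTL, 1.51-fold) among them, and the carrier gene SLC39A14 rose 1.5-fold.

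Clock genes shifted in both directions. NFIL3, a repressor of D-box genes, stood at 8.36, 8.62 and 8.46 on the TGF-alpha arrays and 6.95, 6.69 and 6.8 on the untreated arrays, and rose 3.18-fold (log2 change 1.67 ± 0.12, adjusted p = 3.1e-08). BMAL1, a core activator gene, rose 2.06-fold and NPAS2 1.71-fold. BHLHE41 fell 3.23-fold, NR1D2 2.34-fold and PER2 1.99-fold. Altogether 7 of 19 fell and 6 were higher, 3 without untreated replicate 2, and the hour of harvest was not given. Among EPH receptors and ephrins EFNA1 fell 2.52-fold, EPHA4 2.16-fold and the EPHA2 gene 1.82-fold, with 6 lower and 11 not past the threshold of 18. In the Notch pathway HES1 fell 1.82-fold, MAML2 1.46-fold and NOTCH1 1.35-fold, and 17 of 22 did not pass.

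Among markers of other cell types, 1 of 5 for fibroblasts, 2 of 4 for endothelium and 1 of 4 for myoepithelium passed, against 26% of all genes. Unlike the leukocyte markers, 4 of the 5 fibroblast and 3 of the 4 myoepithelial markers were above background in both groups. Of the 4 endothelial markers, 2 were above it with TGF-alpha and 3 in untreated cells. Of the 5 fibroblast markers DCN, the decorin gene, fell 1.74-fold, and the other 4, COL1A1, COL1A2, LUM and PDGFRB, did not pass. The mean level of these 5 was 5.12 to 5.17 on TGF-alpha arrays and 5.27 to 5.41 on untreated arrays. KDR, a VEGF receptor gene, rose 1.97-fold and CDH5, the endothelial cadherin gene, fell 1.93-fold, with PECAM1 and VWF not past the threshold. The part of other cells in any result was not tested.

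Direct contrasts of TGF-alpha with the other ligands share no untreated array. Against heregulin, 2166 genes were higher (11.8%) and 1820 lower (9.88%). Against AP1510, 2061 were higher (11.2%) and 1920 lower (10.4%). Of the 15 largest rises against untreated cells, 12 were higher with TGF-alpha than with heregulin too, and the remaining 3 were RIPOR2, IL1R2 and SCNN1G. All 15 were higher than with AP1510. All 15 largest falls were lower with TGF-alpha than with either ligand. Since these 30 genes were chosen from the TGF-alpha arrays, the counts are descriptive.

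NT5E stood at 10.17, 10.27 and 10.21 with TGF-alpha, at 6.22, 5.58 and 5.84 with heregulin and at 6.59, 6.57 and 6.62 with AP1510, against 7.33, 6.98 and 7.3 in untreated cells. Heregulin and AP1510 arrays lay under the untreated ones, and TGF-alpha exceeded heregulin by 4.34 ± 0.13 (adjusted p = 3.1e-12) on the log2 scale. S100A8 stood at 8.03, 8.07 and 7.67 with TGF-alpha, at 12.15, 11.84 and 11.97 with heregulin and at 8.97, 9.63 and 9.6 with AP1510, against 10.43, 10.43 and 10.57 in untreated cells. Heregulin gave the highest values and TGF-alpha the lowest, a difference of -4.07 ± 0.15 (adjusted p = 3.7e-11). RIPOR2 was highest with heregulin, at 9.21, 9.09 and 8.8, against 8.01, 8.12 and 8.06 with TGF-alpha. These values did not overlap, but the difference of -0.97 ± 0.34 (adjusted p = 0.055) did not pass. Its standard error is pooled over all groups, and the SD was 0.0552 with TGF-alpha, 0.207 with heregulin and 1.09 with AP1510. AP1510 replicate 1 of RIPOR2 stood apart from its group, at 7.44 beside 5.60 and 5.50. That array was also above its replicates in SCNN1G (8.28 beside 7.14 and 7.08), ZBTB16 (8.21 beside 7.1 and 6.62) and TFCP2L1 (9.9 beside 8.36 and 8.55). It was not above them in NT5E or STEAP4. STEAP4 stood at 5.03, 4.99 and 4.69 with TGF-alpha, 8.66, 8.24 and 8.26 with heregulin and 7.17, 7.74 and 7.95 with AP1510, a difference of -3.48 ± 0.17 (adjusted p = 8e-10) from heregulin. Its 3 TGF-alpha values were under all the others.

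Lists behaved unlike each other in these contrasts. All 53 mitosis genes and all 43 replication genes were higher with TGF-alpha than with heregulin, and 53 and 41 were higher than with AP1510. Immediate early genes were lower with TGF-alpha than with heregulin in 14 of 23 and lower than with AP1510 in 12. The PEA3 gene ETV5 exceeded heregulin by 3.35 ± 0.11 (adjusted p = 5e-12). For glucocorticoid-induced genes the order was different: 2 were higher and 8 lower than with heregulin, whereas 12 were higher and 2 lower than with AP1510. Some of these genes, SCNN1G, ZBTB16 and TFCP2L1 among them, were scattered among the AP1510 arrays. Array weights, which are lower for arrays that scatter more, were 0.584, 0.322 and 4.62 for heregulin replicates 1, 2 and 3. No fit left an AP1510 or heregulin array out. MT2A lay between 12.86 and 13.11 with TGF-alpha and stood at 12.62, 12.59 and 12.63 with heregulin, a difference of 0.38 ± 0.14 (adjusted p = 0.064). Metallothioneins were lower than with heregulin in 3 of 10. Complement and acute phase genes were lower than with heregulin in 13 of 21, and late squamous genes in 13 of 33. Kallikreins were lower than with AP1510 in 5 of 13.

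**Figure D5:**
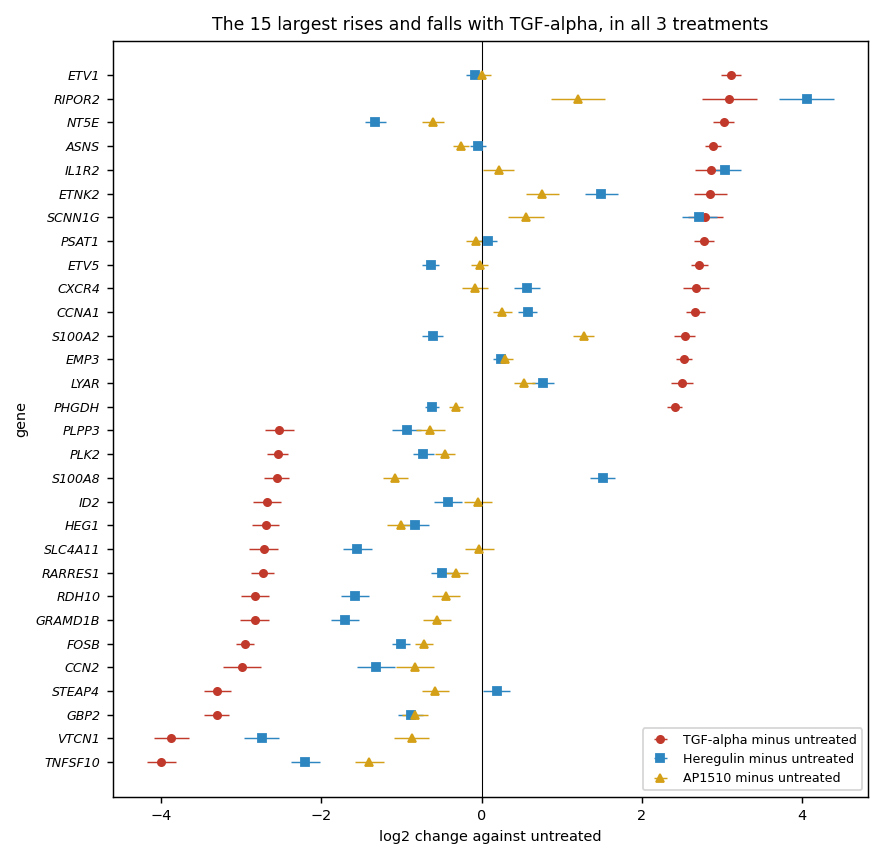
Log2 change against untreated cells (x axis) for the 15 largest rises and 15 largest falls with TGF-alpha (y axis), with circles for TGF-alpha, squares for heregulin and triangles for AP1510, and bars of 1 standard error from the limma fit. The 3 contrasts share the untreated arrays, and S100A8 is the gene with a negative change for TGF-alpha and AP1510 and a large positive one for heregulin, while RIPOR2, IL1R2 and SCNN1G have squares at or beyond their circles.

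Genes that encode miRNAs were looked at after their values had been seen. miRNAs pair with target RNAs mainly through a seed, bases 2 to 8, shown here in capitals for mature forms from RefSeq.
miR-221-3p, chrX:45746180-45746202, minus strand: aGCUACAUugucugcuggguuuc
miR-222-3p, chrX:45747036-45747056, minus strand: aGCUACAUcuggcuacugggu
miR-21-5p, chr17:59841273-59841294, plus strand: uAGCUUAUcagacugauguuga
miR-15a-5p, chr13:50049167-50049188, minus strand: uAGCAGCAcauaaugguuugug
miR-29a-3p, chr7:130876748-130876769, minus strand: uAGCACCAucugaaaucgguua

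Of 164 miRNA genes measured, 9 were lower (5.49%, against 13.4% of all genes), 1 was higher (0.61%, against 12.5%) and 154 did not pass. MIR221 stood at 5.00, 4.29 and 4.53 on the TGF-alpha arrays and 6.19, 5.95 and 6.46 on the untreated arrays, and fell 3.02-fold (log2 change -1.59 ± 0.31, adjusted p = 0.00082). Its TGF-alpha mean was near background. MIR222, its neighbour on chromosome X with the same seed in its 3p form, stood at 3.56, 3.28 and 3.52 on the TGF-alpha arrays and 4.19, 3.89 and 4.36 on the untreated arrays, all near background, and passed as lower (adjusted p = 0.00041). MIR21 stood at 8.89, 8.55 and 8.61 on the TGF-alpha arrays and 10.19, 9.79 and 9.97 on the untreated arrays. MIR21 fell 2.46-fold (log2 change -1.30 ± 0.20, adjusted p = 8.4e-05). The groups did not overlap in any of the 3, which 40.2% of all genes showed and which is no evidence of its own. MIR15A was near background with TGF-alpha and fell 1.84-fold. MIR29A passed as lower, but was near background in both groups. The calls of MIR24-2, MIR27A, MIR98, MIR103A2 and MIR130A, the gene that was higher, were each lost when some array was left out. Probe sets named for a miRNA gene do not tell its mature RNA from its precursor.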

How the data were processed

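Transcript levels were read on Affymetrix arrays, 1 per dish, for 12 dishes in 4 groups. Per the submitters' processing notes, the authors made the deposited values with RMA, which corrects background, equalises array distributions and summarises probes, and the values are log2 intensities. Which version of RMA was used is not stated. No further scaling was applied.

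Of 33297 probe sets, 19460 named 1 gene, 1754 named several and 12083 had none listed, and the last 2 kinds were left out. Symbols were updated through Entrez IDs to RefSeq on GRCh38.p14, which held 19429 of the 19460. For 769 genes with several probe sets, the one with the highest mean over 12 arrays was used, giving 18417 genes.

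Two-sided tests used limma (version 3.58.1, under R 4.3.3). A model over the 12 arrays was fitted with a mean per group (8 residual and 7.55 prior degrees of freedom), because the heregulin and AP1510 arrays share the estimate of the spread. The median moderated SD was 0.128. Benjamini-Hochberg adjustment ran over the 18417 genes of each contrast, with a threshold of 0.05. The procedure was also run on simulated data with independent noise and far fewer changed genes than passed here. That setting is simpler than these data, so the run does not bear on the calls. The number of arrays limits the precision.

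Replicate numbers follow the order of the samples and only name them. The 68 gene lists held 1400 measured genes. The comparison, its members and the lists were chosen with earlier results of these data known. The genes named are the 5 markers given for the comparison, the 15 genes of largest rise and the 15 of largest fall that passed with groups that did not overlap, up to 4 such genes per direction in each list, the ErbB receptors and ligands, and cell type markers. Others are named where a list is described. Alternatives were the 6 arrays alone, renewed quantile normalization, arrays centred on their median, near-background genes left out, a trended and robust spread, array weights, probe sets averaged or tested singly, a floor of 2-fold, and each of the 6 TGF-alpha and untreated arrays left out in turn. They were run for TGF-alpha against untreated only. The contrasts with heregulin and AP1510 had no such check.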

Additional observations from a re-analysis of the deposited data

How the results depend on the processing

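The count of genes past the threshold was 4781, and it was 750 with a floor of 2-fold, the sole alternative that moved it by over 1.5 times. In the 6 fits that dropped 1 array it was 3982 to 4242, with 1904 to 2156 higher and 2038 to 2205 lower. Between 81.3% and 85.2% of the calls were kept in these fits. Over the 6 arrays alone 5201 genes passed, after renewed quantile normalization 4874, with arrays centred on their median 4688, with genes near background left out 4850 of 13048, with a trended and robust spread 4953, with array weights 5568 and with probe sets averaged 4789. No gene was called in the opposite direction in any of the 13 alternatives for which the calls were matched. Counts of short lists moved more. Where a count of 3 or more moved by over 1.5 times without 1 array, its lower value is given beside the list, and counts of 1 or 2 genes in a list often moved when 1 array was left out. The cytosolic ribosomal proteins reached 22 with a trended and robust spread, against 14 as reported, and the cause was not tested. Near background, a measured fold is limited from below. This holds too for SLC1A4 and RPL39L, whose means were near background in untreated cells. It also holds for MUC15, CLDN8, CDH5, CASP10 and SPRR3, whose means were near background with TGF-alpha. No paired analysis was possible because the labels give no replicate number that the groups share.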

Other observations

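Some genes were near background in one group and above it in the other, and those named here were chosen after their values were seen. Of the genes that passed as higher, 94 had a mean near background in untreated cells and above it with TGF-alpha. SKA1, a kinetochore gene, averaged 6.75 with TGF-alpha and 4.58 in untreated cells (log2 change 2.17, limma adjusted p = 1e-07). SULT1E1, the estrogen sulfotransferase gene, averaged 6.71 with TGF-alpha and 4.69 in untreated cells (log2 change 2.03), and the cohesion gene ESCO2 6.04 with TGF-alpha and 4.37 in untreated cells. The list also held SLC7A2, a carrier of arginine and lysine, at 6.26 with TGF-alpha and 4.60 in untreated cells.

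In the other direction, 104 genes that passed as lower were near background with TGF-alpha and above it in untreated cells. TNFRSF11B, which encodes the TRAIL and RANKL decoy osteoprotegerin, averaged 4.44 with TGF-alpha and 6.78 in untreated cells (log2 change -2.35, adjusted p = 9.1e-07). PTPN22, a phosphatase gene best known in lymphocytes, averaged 4.32 with TGF-alpha and 6.01 in untreated cells, and the peptide carrier gene SLC15A2 4.24 with TGF-alpha and 5.91 in untreated cells. WNT5A, a ligand gene of the noncanonical WNT pathway, averaged 4.57 with TGF-alpha and 5.34 in untreated cells.

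Of the called genes, 223 had 293 further probe sets. Among these, 191 passed in the gene's direction and 102 did not pass.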
